A study of Mus musculus with 28 samples.

Results

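Lungs of newborn mice that lack both HRas and NRas (double knockout, DKO) were compared with lungs that lack HRas alone (HRas-KO), in animals without N-acetyl cysteine (NAC). The arrays were chosen by their source labels, DKO or HRas-KO with no mention of NAC, which gave 5 DKO and 3 HRas-KO arrays out of 28 in the series. Both groups are deficient in HRas, so the labelled difference between them is NRas, and the comparison asks what the loss of NRas adds where HRas is already absent. Each array holds RNA of the whole lungs of 1 animal taken on postnatal day 0. The labels give neither strain nor how the alleles were made, nor the age of the animals within that day. The other untreated arrays were 3 Control and 3 NRas-KO lungs, and a second arm, in which the mothers received the antioxidant NAC through pregnancy, held 4 DKO+NAC and 3 HRas-KO+NAC lungs beside 3 NRas-KO+NAC and 4 Control+NAC lungs.

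HRas and NRas are small membrane-bound GTPases that pass signals from growth factor receptors to the RAF, MEK and ERK kinase cascade and to PI3K. In the distal lung, FGF signalling through ERK maintains transcription factors such as Etv5 and Sox9 in epithelial tips, and around birth type 2 cells secrete surfactant while thin type 1 cells and capillaries form the gas exchange surface. The series title reports that double knockout animals die of respiratory distress.

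Values are log2 levels after RMA (a background correction, quantile normalization and probe summary), and differences are log2 DKO minus log2 HRas-KO, so 1 unit is a 2-fold difference. Each value is relative to the whole RNA of an array, so fewer cells of a type and less RNA per cell cannot be told apart in these whole lungs. Called genes are those with p under 0.05 after Benjamini-Hochberg adjustment across the 22180 genes of 1 limma fit of all 28 arrays, and every adjusted p below comes from that fit. Errors of group means are SDs over animals and errors of differences are SEs of the fit.

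The 8 arrays were lung by their markers and differed in several ways beside genotype. Sftpc, the surfactant protein of type 2 cells, lay between 13.03 and 13.23 on all of them, near the highest value in the table (13.55). Xist and the Y-linked gene Uty showed HRas-KO replicates 1 and 2 and DKO replicates 1 and 3 to be female and the other 4 male. The mean of 19 heart muscle genes, relative to all untreated arrays, was 0.43, 0.52 and -0.01 on the HRas-KO arrays and -0.23 to -0.05 on the DKO arrays. That of 20 skeletal muscle genes was -0.28 to -0.19 in HRas-KO and 0.73, -0.23, 0.10, -0.32 and 0.35 in DKO. That of 11 liver genes was highest, at 1.57, on DKO replicate 5. Sample titles carry an animal code, and no code start occurred in both groups. DKO replicates 1, 2 and 3 share 1 code start. Should the code start mark a litter or a day of collection, which the labels do not say, it and genotype cannot be told apart. Those DKO lungs would then not be independent of each other. In settings that leave 1 array in a group, its spread is taken from the other groups.

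DKO and HRas-KO lungs differed in 1248 of 22180 genes (5.63%), of which 733 were higher (3.3%) and 515 lower (2.32%) in DKO. Among them 90 (0.406% of all genes) differed by 2-fold or more, of which 60 rose (0.271%) and 30 fell (0.135%), and the median difference over all genes was 0.01. The 5 DKO values and the 3 HRas-KO values did not overlap for 2838 genes (12.8%), and 1088 genes (4.91%) were both called and free of overlap. When each array was centred on its median the split became 876 higher and 394 lower. The call count depended on the HRas-KO arrays: it was 632 without replicate 1, 549 without replicate 2 and 761 without replicate 3. It was 736 among females alone, 111 among males alone (3 against 1 array), 651 without the 3 DKO arrays highest in skeletal muscle genes, and 115 with the skeletal and heart muscle means as covariates.

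**Figure D1:**
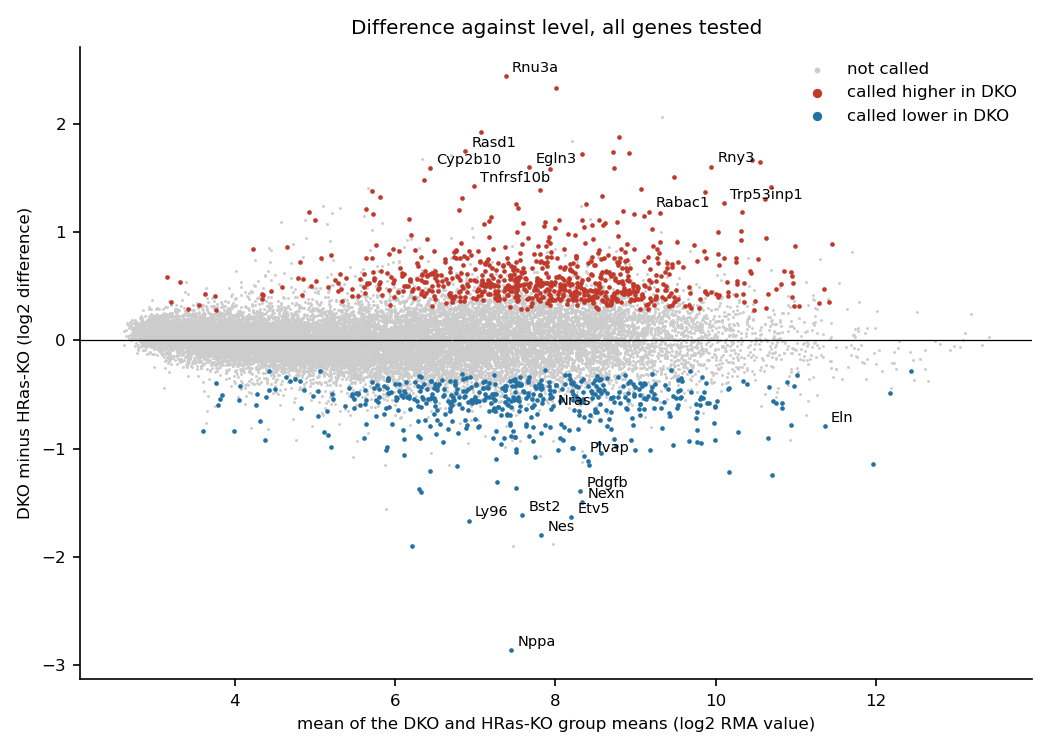
Difference between DKO and HRas-KO lungs (log2, vertical) against the mean of both group means (log2 RMA value, horizontal), 1 point per gene; red points are the 733 genes called higher and blue points the 515 called lower. Rnu3a stands highest at 2.44 and Nppa lowest at -2.86, and most called genes lie within 1 unit of 0.

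Nras itself was lower in every DKO array, as the labels require. It read 8.33, 8.12 and 8.35 on the HRas-KO arrays and 7.74, 7.64, 7.40, 7.70 and 7.66 on the DKO arrays. The groups did not overlap, and the difference was -0.64 ± 0.11 (adjusted p = 0.000876). The remaining signal of 7.63 ± 0.13 (SD, n = 5) was like that of NRas-KO lungs, 7.69 ± 0.10 (n = 3), while Control lungs gave 8.24 ± 0.14 (n = 3). The labels do not say where the probes lie relative to the deleted part.

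Of 21 genes of the Ras family and close relatives 2 rose and 2 fell, though with any 1 HRas-KO array left out 1 rose. Besides Nras, Rap2a, a Rap GTPase, fell by 0.47 on the log2 scale (adjusted p = 0.030), and Rasl11b rose by 0.56 (adjusted p = 0.0427). The Rasl11b call was lost under 18 of 25 other settings and that of Rap2a under 11. The largest change was in Rasd1, a dexamethasone-inducible Ras-like protein. Rasd1 read 5.79, 5.75 and 6.47 in HRas-KO and 7.64, 7.97, 7.61, 7.29 and 8.26 in DKO. Every DKO lung exceeded every HRas-KO lung, by 1.75 ± 0.30 on average (adjusted p = 0.000996), and Control lungs stood at 6.33 ± 0.71 (SD, n = 3).

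Of 19 exchange factors and GTPase-activating proteins of Ras only Rasgrp4, an exchange factor of mast cells, was called (-0.55, adjusted p = 0.00889). Of 13 genes of the RAF, MEK and ERK cascade only the kinase Braf was called, at 0.30 ± 0.08 (adjusted p = 0.0325). That call was lost under 14 of 25 other settings. Of 17 genes of PI3K and AKT signalling only Rictor, a subunit of the mTORC2 kinase complex, was called, at 0.76 ± 0.14 (adjusted p = 0.00123).

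Among 17 genes that ERK signalling is known to induce, 3 fell, none rose, and the median difference was -0.09 against 0.01 over all genes. The number that fell was 5 among females alone, 1 among males alone and 1 with muscle means as covariates. The fall of Etv5, an ETS factor downstream of FGF receptors, was among the firmest of the comparison. Etv5 read 9.16, 9.06 and 8.83 in HRas-KO and 7.27, 7.23, 7.26, 7.81 and 7.35 in DKO. The lowest HRas-KO lung stood 1 unit above the highest DKO lung, and the difference was -1.63 ± 0.15 (adjusted p = 8.19e-07). It was called under each of 25 other settings, with values from -1.84 to -0.81. Control and NRas-KO lungs, at 8.57 ± 0.32 and 8.71 ± 0.15 (SD, n = 3 each), lay between HRas-KO and DKO lungs but nearer to HRas-KO.

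The other called ERK targets were Ccnd1 and Phlda1. Ccnd1, a cyclin of the G1 phase, read 9.08, 8.94 and 8.98 in HRas-KO and 7.75, 8.01, 6.85, 8.23 and 8.39 in DKO. All DKO lungs were lower, replicate 3 the most, and the difference was -1.15 ± 0.22 (adjusted p = 0.00202). Phlda1, a pleckstrin-homology protein induced by growth factors, differed by -0.80 ± 0.20 (adjusted p = 0.0165). The classical feedback inhibitors, named here after their values were seen, did not pass. Spry2, an inhibitor of receptor signalling, differed by 0.75 (adjusted p = 0.0765), Spry4 by -0.13 (adjusted p = 0.901), the ERK phosphatase Dusp6 by 0.09 (adjusted p = 0.891), and Dusp4 by -0.65 (adjusted p = 0.0645). Etv4, the close relative of Etv5, was dim at 5.13 ± 0.23 in HRas-KO and 5.04 ± 0.08 in DKO.

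Genes of distal lung epithelium were lower in part. Of 22 surfactant and type 2 cell genes 4 fell and none rose, with a median of -0.21. Etv5 is one of them. Muc1, a membrane mucin of the alveolar surface, read 11.30, 11.37 and 11.32 in HRas-KO and 10.40, 10.69, 10.37, 10.72 and 10.56 in DKO. The HRas-KO lungs lay within 0.1 of each other and above every DKO lung (-0.78 ± 0.11, adjusted p = 0.000111). Slc34a2, the phosphate carrier of type 2 cells, differed by -0.49 ± 0.12 (adjusted p = 0.0145), and Sfta2, a surfactant-associated protein, by -0.46 ± 0.13 (adjusted p = 0.038). Of the surfactant protein genes, named here after their values were seen, Sftpb differed by -0.26 ± 0.11 (adjusted p = 0.166) and Sftpc by 0.07 ± 0.07 (adjusted p = 0.645), and neither was called. Sftpc lies near the top of the scale, so its small difference says little. The list mean was lowest in the female DKO replicates 1 and 3 (-0.38 and -0.33), while the male DKO replicates 2, 4 and 5 (-0.01, 0.04 and -0.07) met HRas-KO replicate 3, also male (0.04). The number of the list called lower was 9 among females alone and 1 among males alone, where 1 rose. It was 2 without HRas-KO replicate 1 or without replicate 2, and 1 with muscle means as covariates.

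Other epithelial lists had at most 1 called gene each, where 5.63% of all genes were called. Sox9, a factor of distal epithelial tips, read 7.44, 7.42 and 7.21 in HRas-KO and 6.63, 6.39, 6.50, 6.82 and 6.84 in DKO, a fall of 0.72 ± 0.16 on the log2 scale (adjusted p = 0.00741), and was the only gene called of 12 in its list. Hopx, a type 1 cell gene, rose by 0.64 ± 0.16 (adjusted p = 0.0167) and was the only one called of 16. Krt15, a basal-cell keratin, rose by 0.88 ± 0.23 (adjusted p = 0.0207) and was the only one called of 12 club cell genes, the list that holds it. No gene was called among 15 of ciliated cells or 11 basal and squamous keratins.

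Genes that type I interferon induces were the list with the most falls. Of 34 measured 10 fell and none rose, and 31 had a negative difference, with a median of -0.36. The core sequence that the interferon-activated transcription factor complex binds, GAAA, any 2 bases and GAAA again on either strand, occurs within 250 bases before the start of 577 of 16990 genes that have a RefSeq promoter entry (3.3961%), and of 11 of the 25 interferon genes that have one (44%). It was present in 3 of 7 that fell and in 8 of 18 that were not called. The stretches of the 3 that fell are shown, 5′ to 3′ on the strand of the gene, because they carry the shared motif, in capitals, within genes that differ in function (RefSeq, GRCm38.p6).
Bst2 (chr8:71537547-71537642, minus strand): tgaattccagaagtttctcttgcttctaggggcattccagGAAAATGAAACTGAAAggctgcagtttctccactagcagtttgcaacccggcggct
Ifit1 (chr19:34640745-34640853, plus strand): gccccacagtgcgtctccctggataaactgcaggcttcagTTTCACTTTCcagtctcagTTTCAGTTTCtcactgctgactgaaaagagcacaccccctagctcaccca
Stat2 (chr10:128270248-128270325, plus strand): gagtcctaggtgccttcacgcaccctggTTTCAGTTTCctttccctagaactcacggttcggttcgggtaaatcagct
In Bst2 a pair of matches overlaps in 1 run of capitals, in Ifit1 2 separate matches lie on the opposite strand, and in Stat2 there is 1. A match describes the letters only.

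Bst2, also called tetherin, which holds budding viruses at the cell surface, read 8.44, 8.52 and 8.23 in HRas-KO and 6.57, 7.17, 5.68, 7.54 and 6.95 in DKO. All DKO lungs were lower, and the difference was -1.62 ± 0.28 (adjusted p = 0.000863). Stat2, a subunit of the interferon-activated complex, read 8.01, 7.68 and 7.34 in HRas-KO and 7.06, 6.88, 7.15, 6.83 and 6.27 in DKO (-0.84 ± 0.18, adjusted p = 0.00569). HRas-KO replicate 3 lay within 0.2 of DKO replicate 3, so the groups of Stat2 were separate but close. Iigp1, an interferon-inducible GTPase, differed by -1.31 ± 0.29 (adjusted p = 0.00823), with HRas-KO replicate 3 (7.24) below DKO replicate 2 (7.30). Oas2, an RNA sensor of the oligoadenylate synthetases, differed by -0.77 ± 0.18 (adjusted p = 0.0123), its relative Oasl2 by -1.20 ± 0.33 (adjusted p = 0.0281), and Ifit1, an RNA-binding inhibitor of translation named after its values were seen, by -0.98 ± 0.25 (adjusted p = 0.0183).

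The number of interferon calls depended on HRas-KO replicates 1 and 2, while the list median changed little when only 1 of them was left out. The list median was -0.36 with all arrays, -0.35 without HRas-KO replicate 1 and -0.32 without replicate 2. It was -0.22 with muscle means as covariates, -0.505 among females alone and -0.18 among males alone, where both replicates are absent. The list mean was 0.28 and 0.29 on HRas-KO replicates 1 and 2 and -0.14 on replicate 3, against -0.46 to -0.20 on the DKO arrays. The number called lower was 1 without HRas-KO replicate 1, 2 without replicate 2, 12 without replicate 3 and 6 without DKO replicate 5, and it was 9 among females alone and 0 among males alone. HRas-KO replicates 1 and 2 are also the 2 arrays high in heart muscle genes, and with muscle means as covariates 0 interferon genes were called. The part of muscle or sex in the difference was not tested apart from these values. Control lungs spanned 0.11 to 0.50 and NRas-KO lungs 0.08 to 0.22 on the same scale, and both groups hold males and females.

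Of 18 innate sensing genes 1 fell and 2 rose. Ly96 (MD-2), the partner of the endotoxin receptor Tlr4, read 7.99, 7.92 and 7.34 in HRas-KO and 6.39, 5.68, 6.05, 6.44 and 5.87 in DKO, without overlap (-1.66 ± 0.29, adjusted p = 0.000876). Tlr8, a receptor for single-stranded RNA, rose (0.57, adjusted p = 0.035), and so did Lbp, the endotoxin-binding protein (0.43, adjusted p = 0.0438). Both rises were lost without HRas-KO replicate 1 or 3 and without DKO replicate 2 or 5. None of 12 genes of antigen presentation was called, and of 18 macrophage genes only the Fc receptor gene Fcgr1 was (-0.65, adjusted p = 0.043). The Fcgr1 call was lost under 16 of 25 other settings. The macrophage markers Cd68 and Adgre1 differed by -0.10 and -0.08 (adjusted p = 0.883 and 0.887). Gimap4, a GTPase of lymphocytes and endothelium, fell by 1.09 ± 0.19 on the log2 scale (adjusted p = 0.000914) with 14 lymphoid genes uncalled. Stfa2l1, a stefin of myeloid cells whose family holds near-identical copies that probes may not separate, fell by 1.21 ± 0.33 on the log2 scale (adjusted p = 0.0252).

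**Figure D2:**
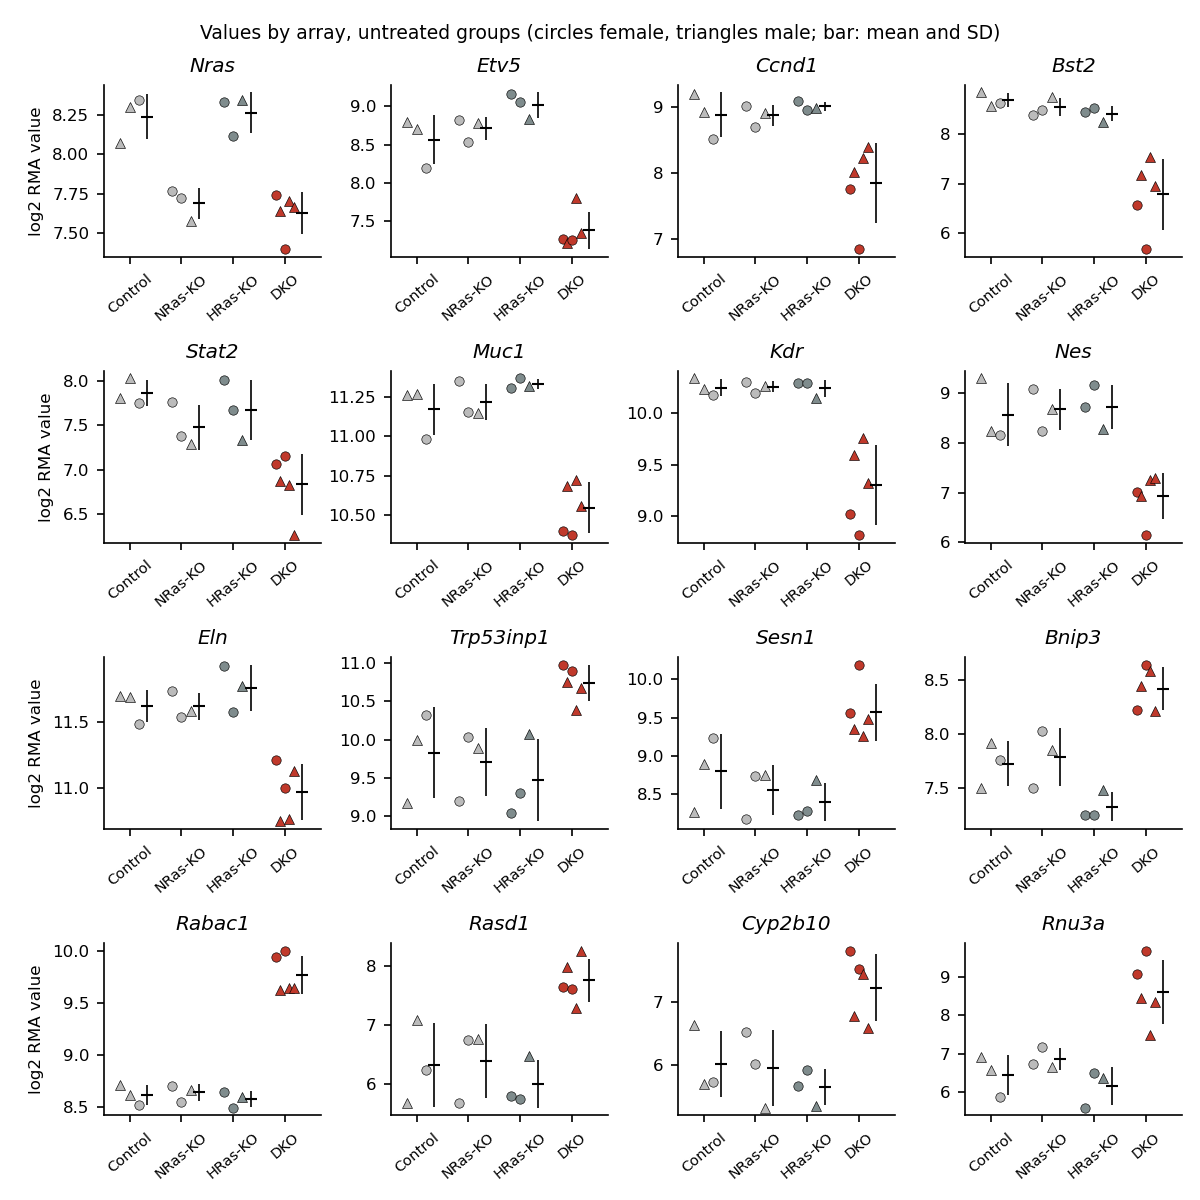
Level of 16 genes (log2 RMA value, vertical) on each untreated array by group; circles are female and triangles male lungs, and the bar beside each group gives the mean and SD. DKO lungs stand apart from the other 3 groups for Etv5, Muc1, Nes, Rabac1 and Rasd1, whereas Nras is low in NRas-KO and DKO alike.

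Of 17 general endothelial genes 3 fell and 1 rose, and 0 fell with the muscle means or the small RNA mean described below as covariates. Kdr, the main VEGF receptor, read 10.29, 10.29 and 10.15 in HRas-KO and 9.02, 9.59, 8.81, 9.76 and 9.33 in DKO. Every DKO lung was below every HRas-KO lung (-0.94 ± 0.15, adjusted p = 0.000402). Erg, an endothelial ETS factor, differed by -0.74 ± 0.14 (adjusted p = 0.00237) and Tie1, a receptor partner of Tek, by -0.63 ± 0.15 (adjusted p = 0.0123). Tek, the angiopoietin receptor, went the other way by 0.47 ± 0.14 (adjusted p = 0.0404), with the groups overlapping. Its call was lost under 15 of 25 other settings. The junction genes Pecam1 and Cdh5 differed by -0.11 ± 0.07 (adjusted p = 0.386) and -0.04 ± 0.10 (adjusted p = 0.888).

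Of 17 capillary, arterial and venous genes Plvap fell and Ednrb rose. Plvap forms the diaphragms of capillary fenestrae and read 8.83, 9.03 and 8.79 in HRas-KO and 8.23, 7.68, 7.73, 7.62 and 7.84 in DKO (-1.07 ± 0.16, adjusted p = 0.000294). Ednrb, the endothelin receptor of aerocyte capillaries, read 9.63, 9.59 and 9.93 in HRas-KO and 10.68, 10.50, 10.83, 10.16 and 10.25 in DKO, a rise of 0.76 ± 0.17 (adjusted p = 0.00633). Neither gene's groups overlapped. Apln, the peptide ligand apelin, named after its values were seen, read 9.22, 8.80 and 8.73 in HRas-KO and 5.17, 8.26, 4.75, 8.27 and 8.70 in DKO. Its loss on the female replicates 1 and 3 was large and the other 3 DKO lungs stood just below HRas-KO, so the difference did not pass (-1.88 ± 0.60, adjusted p = 0.0622). Its receptor Aplnr, also named after its values were seen, differed by 0.63 ± 0.19 (adjusted p = 0.0547). Vegfd, a VEGF made by lung mesenchyme, was the only gene called of 16 in VEGF, angiopoietin and apelin signalling (-0.70 ± 0.17, adjusted p = 0.0134).

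Of 15 pericyte, nestin and PDGF genes 2 fell and 1 rose. Nes, the intermediate filament nestin of pericytes and precursor cells, read 8.72, 9.17 and 8.28 in HRas-KO and 7.02, 6.93, 6.14, 7.25 and 7.29 in DKO. No DKO lung reached the lowest HRas-KO lung (-1.80 ± 0.25, adjusted p = 0.000133). Pdgfb, the endothelial ligand that recruits pericytes, read 8.99, 9.26 and 8.78 in HRas-KO and 7.08, 7.71, 6.81, 8.31 and 8.17 in DKO (-1.39 ± 0.27, adjusted p = 0.00282). Rgs5, a pericyte regulator of G proteins, rose by 0.92 ± 0.17 (adjusted p = 0.00161), and the receptor Pdgfrb, named after its values were seen, differed by 0.05 ± 0.13 (adjusted p = 0.907).

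Of 16 smooth muscle genes 2 fell, none rose and 14 had a negative difference, with a median of -0.29. The number that fell was 4 without HRas-KO replicate 3 and 4 among females alone. It was 0 with the skeletal and heart muscle means as covariates and 1 with the small RNA mean. Among males alone the list median was -0.10. Nexn, an actin-binding protein of muscle, read 9.28, 9.28 and 8.67 in HRas-KO and 7.17, 8.08, 7.21, 7.58 and 7.88 in DKO (-1.49 ± 0.27, adjusted p = 0.00123). Smtn, the smoothelin of contractile cells, differed by -0.74 ± 0.14 (adjusted p = 0.00246), and Acta2 by -0.04 ± 0.24 (adjusted p = 0.960). The heart also expresses Nexn. The heart muscle list, 4 of whose 19 genes fell (Nppa, Tnnt2, Tnni3 and Myl4), was led by the atrial peptide gene Nppa. It read 10.72, 9.39 and 6.53 in HRas-KO and 5.32 to 6.42 in DKO, with Control lungs at 6.05 ± 0.04 (SD, n = 3). The difference of -2.86 (adjusted p = 0.0308) was carried by the HRas-KO arrays that were high in heart genes, and with muscle means as covariates the difference was 0.30 (adjusted p = 0.931). Without HRas-KO replicate 1 or without replicate 2, 0 heart genes fell, and without DKO replicate 4 or 5, 2 did. Cardiac tissue next to the lung and expression within it cannot be told apart here.

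Of 13 lipofibroblast and alveolar fibroblast genes Tcf21, a mesenchymal factor, fell by 0.83 ± 0.18 on the log2 scale (adjusted p = 0.00728) and the collagen Col13a1 by 0.58 ± 0.11 (adjusted p = 0.00174), while Npnt, the matrix ligand nephronectin, rose by 0.48 ± 0.11 (adjusted p = 0.00896). Eln, the elastin of alveolar walls, read 11.92, 11.57 and 11.77 in HRas-KO and 11.21, 10.74, 10.998, 10.76 and 11.12 in DKO. All DKO lungs were lower (-0.79 ± 0.12, adjusted p = 0.000295). Ltbp4, which guides elastin assembly, fell by 0.53 ± 0.14 on the log2 scale (adjusted p = 0.0178). The microfibril gene Mfap5 rose by 0.76 ± 0.22 (adjusted p = 0.0434), and these 3 were the called ones of 22 basement membrane and elastic fibre genes. Of 24 collagen genes Col18a1 and Col6a2 fell (-0.55 and -0.47, adjusted p = 0.0379 and 0.0399) and 19 had a negative difference. Each call was lost under 13 of 25 other settings, among them leaving out any 1 HRas-KO array or DKO replicate 1 or 3.

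Of 12 Hedgehog pathway genes 2 fell and none rose, and 1 fell without HRas-KO replicate 1 or 3 or DKO replicate 5. Ptch1, the Hedgehog receptor that is itself a target, read 9.05, 9.19 and 8.83 in HRas-KO and 8.41, 8.15, 8.32, 8.42 and 8.51 in DKO (-0.66 ± 0.12, adjusted p = 0.00183). Gli1, the other common read-out of Hedgehog signalling, fell by 0.51 ± 0.13 on the log2 scale (adjusted p = 0.0245), and the others were not called. Axin2, a WNT target and inhibitor, differed by -0.77 ± 0.16 (adjusted p = 0.00396), alone among 20 WNT genes. Of 25 TGF-beta and BMP genes 5 rose and 4 fell, though 1 rose and 1 fell without HRas-KO replicate 2, and 2 rose and 1 fell without replicate 1. The inhibitory Smads fell, Smad6 by 0.91 ± 0.21 and Smad7 by 0.61 ± 0.14 on the log2 scale (adjusted p = 0.0109 and 0.011), as did the endothelial BMP receptor Acvrl1 (-0.55 ± 0.13, adjusted p = 0.0119). Thbs2, a matrix thrombospondin, rose by 0.70 ± 0.17 (adjusted p = 0.0122). Of 24 FGF and EGF inputs only Fgf1 was called (-0.55 ± 0.13, adjusted p = 0.0141).

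Targets of p53 were the list with the most rises for its size among protein-coding genes. Of 18 measured 7 rose and 1 fell, 14 had a positive difference, and the median was 0.20. Trp53inp1, a p53-induced nuclear protein, read 9.04, 9.30 and 10.08 in HRas-KO and 10.98, 10.76, 10.90, 10.39 and 10.67 in DKO. HRas-KO replicate 3 was the highest of its group and DKO replicate 4 the lowest of its own, without overlap, and the difference was 1.27 ± 0.21 (adjusted p = 0.000788). Sesn1, a stress-induced inhibitor of mTORC1, read 8.23, 8.28 and 8.69 in HRas-KO and 9.56, 9.35, 10.19, 9.27 and 9.48 in DKO (1.17 ± 0.20, adjusted p = 0.00104). Perp, a membrane protein of cell junctions, rose by 1.15 ± 0.18 (adjusted p = 0.00047), and the death receptor gene Tnfrsf10b by 1.42 ± 0.25 (adjusted p = 0.00112). Cdkn1a, the kinase inhibitor p21, rose by 0.59 ± 0.12 (adjusted p = 0.00288).

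One target ran against the rest. Phlda3, an AKT inhibitor, read 8.17, 8.20 and 7.98 in HRas-KO and 7.38, 7.28, 7.15, 7.34 and 7.45 in DKO, a fall of 0.80 ± 0.11 on the log2 scale (adjusted p = 0.000107). The list mean was -0.23 to -0.08 on the HRas-KO arrays and 0.19 to 0.32 on the DKO arrays, so no DKO lung met an HRas-KO lung on it. With any 1 of the 8 arrays left out 5 to 8 targets rose, among females alone 6 did and among males alone 0. With muscle means as covariates 0 rose, and with the small RNA mean described below as a covariate 1 did. No gene was called among 24 cell cycle genes, and of 13 D cyclins and G1 kinases Ccnd2 fell (-0.40 ± 0.12, adjusted p = 0.0397) besides Ccnd1.

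**Figure D3:**
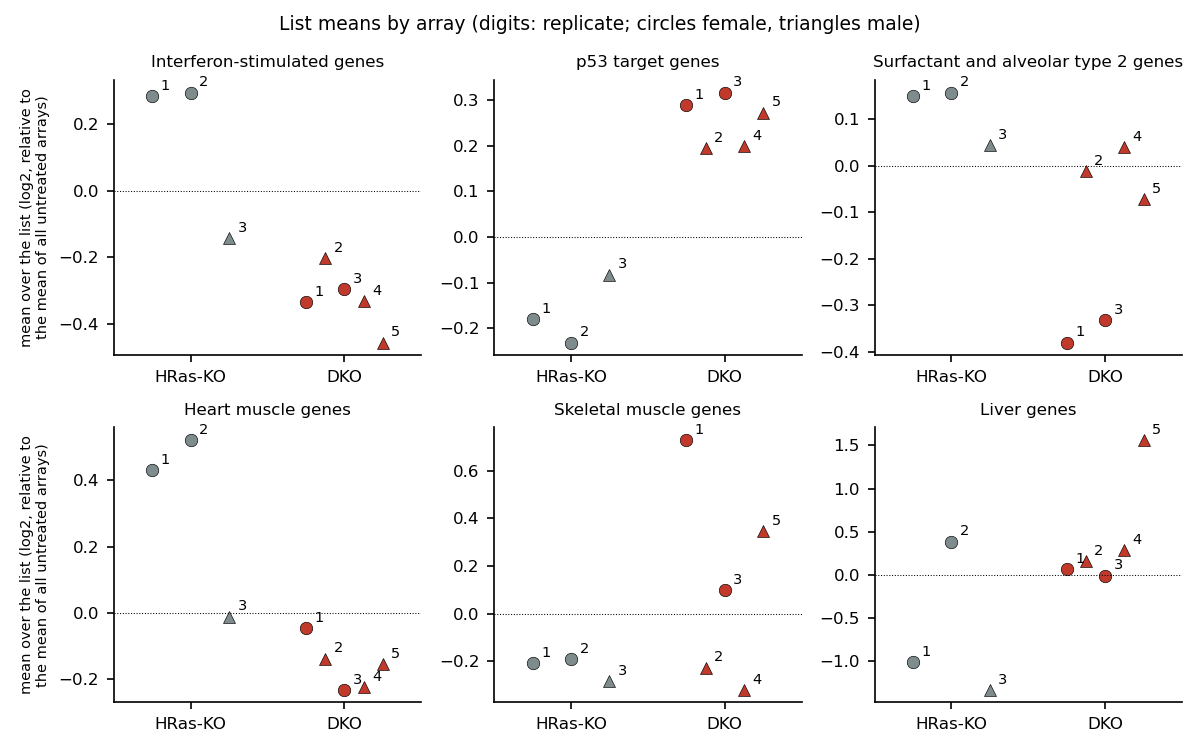
Mean of a list on each array (log2, relative to the mean of all untreated arrays, vertical) for HRas-KO and DKO lungs; digits give the replicate, circles are female and triangles male. The p53 targets separate the groups (-0.23 to -0.08 against 0.19 to 0.32), while HRas-KO replicates 1 and 2 lead in interferon and heart genes and DKO replicates 1 and 3 are lowest in type 2 cell genes.

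Several stress hormone and hypoxia genes rose in DKO. Of 20 genes that glucocorticoids induce 4 rose and none fell, with a median of 0.19, among them Rasd1 and Cdkn1a. Ddit4, an mTORC1 inhibitor induced by glucocorticoids, hypoxia and p53, read 7.42, 6.92 and 8.10 in HRas-KO and 8.59, 8.45, 8.39, 8.51 and 8.68 in DKO (1.04 ± 0.22, adjusted p = 0.00525). The DKO lungs were closely grouped and the HRas-KO lungs were not. The number of the list that rose was 2 without HRas-KO replicate 2, 0 with muscle means, 1 with the small RNA mean and 0 among males alone. The sulfotransferase Sult1d1 rose by 0.43 ± 0.13 (adjusted p = 0.043) from a dim level of 3.42 ± 0.06 (SD, n = 3).

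Of 21 hypoxia response genes 3 rose and none fell, with a median of 0.19. The letters ACGTG, the core of the site that hypoxia-inducible factors bind, occur on either strand within 250 bases before the start of 20.359% of all 16990 genes, of 11 of 17 hypoxia genes and of the 3 that rose. The stretches of those 3 are shown with the core in capitals (RefSeq, GRCm38.p6), since they are the members on which the group rests.
Egln3 (chr12:54204059-54204124, minus strand): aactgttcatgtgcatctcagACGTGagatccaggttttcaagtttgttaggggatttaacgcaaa
Bnip3 (chr7:138909569-138909654, minus strand): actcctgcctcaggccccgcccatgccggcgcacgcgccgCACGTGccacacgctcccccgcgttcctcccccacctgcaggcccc
Slc2a1 (chr4:119108669-119108744, plus strand): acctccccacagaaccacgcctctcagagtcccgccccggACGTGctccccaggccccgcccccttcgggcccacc
In Bnip3 both strands match within 1 palindromic run.

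Egln3, a prolyl hydroxylase that marks hypoxia-inducible factors for removal and is itself a target, read 6.78, 6.88 and 6.97 in HRas-KO and 8.50, 8.93, 7.95, 8.87 and 8.13 in DKO. The lowest DKO lung was nearly 1 unit above the highest HRas-KO lung (1.60 ± 0.35, adjusted p = 0.00656). Bnip3, a mitophagy receptor, read 7.25, 7.25 and 7.49 in HRas-KO and 8.23, 8.45, 8.65, 8.59 and 8.21 in DKO (1.09 ± 0.18, adjusted p = 0.000619). The glucose transporter gene Slc2a1 rose by 0.88 ± 0.17 (adjusted p = 0.00205). Of 14 glycolysis genes none rose and Pfkfb4, a regulator of glycolysis and also a hypoxia target, fell by 0.48 ± 0.13 on the log2 scale (adjusted p = 0.0259). All 3 hypoxia calls held with any 1 of the 8 arrays left out, and with the muscle means or the small RNA mean as covariates 0 genes of the list were called. Among females alone 1 rose, with a list median of 0.07, and the median among males alone was 0.22. Egln3 is one of the genes whose NRas-KO lungs, at 7.78 ± 0.74 (SD, n = 3), spread between both groups.

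Several genes of xenobiotic and lipid metabolism rose. Of 23 cytochrome P450 and xenobiotic genes 5 rose and none fell. The number that rose was 2 without HRas-KO replicate 1 or without replicate 2, 3 without DKO replicate 3, 1 with the muscle means or the small RNA mean as covariates, and 0 among males alone. Cyp2b10, a P450 induced through the receptor CAR, read 5.66, 5.92 and 5.34 in HRas-KO and 7.82, 6.77, 7.53, 7.45 and 6.58 in DKO, without overlap (1.59 ± 0.28, adjusted p = 0.00115). The quinone reductase gene Nqo1 rose by 0.56 ± 0.13 (adjusted p = 0.00878) and the glutathione transferase genes Gsta4 and Gsta3 by 0.58 ± 0.15 and 0.47 ± 0.13 (adjusted p = 0.0216 and 0.025). Of 26 genes of glutathione, thioredoxin and the NRF2 response Nqo1 rose and Sod3, the extracellular superoxide dismutase, fell by 0.79 ± 0.15 on the log2 scale (adjusted p = 0.00258). Of 18 cholesterol synthesis genes 4 rose, none fell and 16 had a positive difference. Fdft1 rose by 0.77 ± 0.19 and Sqle, both enzymes of the squalene step, by 0.76 ± 0.20 (adjusted p = 0.0171 and 0.0206). Their highest values were on DKO replicates 1 and 3, and 0 cholesterol genes were called without HRas-KO replicate 1 or without replicate 2, and 1 without DKO replicate 1 or without replicate 3.

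The series title names sphingolipid metabolism and oxidative phosphorylation as raised in double knockout lungs, and the lists below were written for that reason. Of 46 sphingolipid genes 7 rose and 1 fell, where 3.3% and 2.32% of all genes did, with a median of 0.12. Sphk1, the kinase that makes sphingosine 1-phosphate, read 6.78, 6.52 and 6.68 in HRas-KO and 7.20, 7.09, 7.29, 7.22 and 7.28 in DKO (0.56 ± 0.10, adjusted p = 0.000996). The DKO lungs lay within 0.2 of each other and above all HRas-KO lungs. Degs1, the desaturase that completes ceramide, rose by 0.52 ± 0.10 (adjusted p = 0.00224), the ceramide synthase gene Cers5 by 0.59 ± 0.11 (adjusted p = 0.00229) and Asah2, the neutral ceramidase gene, by 0.54 ± 0.12 (adjusted p = 0.00965). The number that rose was 3 to 8 with 1 of the 8 arrays left out (3 without HRas-KO replicate 2, 4 without replicate 3), 3 among females alone, 0 among males alone, and 0 with the muscle means or the small RNA mean as covariates. The direction of this list is not independent evidence, since the series names it.

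Respiratory chain genes moved both ways. Of 33 complex I subunit genes 4 rose and 1 fell, with a median of 0.01, the same as over all genes, and 2 rose with any 1 HRas-KO array left out. Ndufa11 rose by 0.78 ± 0.16, Ndufc2 by 0.45 ± 0.11 and Ndufa7 by 0.65 ± 0.16 (adjusted p = 0.00431, 0.0123 and 0.0175). Ndufc1 fell by 0.61 ± 0.16 on the log2 scale (adjusted p = 0.0216). Ndufa11 was not called with the mean of its probe sets. With the muscle means or the small RNA mean as covariates 0 complex I genes were called. Of 38 genes of complexes II, III and IV and of ATP synthase 3 rose and 3 fell, but 1 rose and 0 fell without HRas-KO replicate 2. Uqcrfs1, the Rieske protein of complex III, rose by 0.61 ± 0.13 (adjusted p = 0.00396), and Sdhc, a membrane anchor of complex II, fell by 0.77 ± 0.19 on the log2 scale (adjusted p = 0.0134). Of 16 genes of mitochondrial dynamics and biogenesis the fission factor gene Mff read 8.60, 8.27 and 8.34 in HRas-KO and 9.21, 9.12, 9.43, 9.10 and 9.38 in DKO, a rise of 0.84 ± 0.12 (adjusted p = 0.000133). Gabpa, an activator of respiratory genes, rose by 0.56 ± 0.11 and the fusion GTPase gene Opa1 by 0.42 ± 0.11 (adjusted p = 0.00205 and 0.0224), and none of that list fell. The number of that list that rose was 2 to 3 with 1 of the 8 arrays left out and 1 among females alone. It was 0 with the muscle means and 2 with the small RNA mean as covariates. The list median was 0.06 with all arrays and 0.01 among males alone.

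Several genes that lipid-modify and move Ras and Rab proteins rose. Of 18 measured 5 rose and 1 fell, with a median of 0.13. The number that rose was 2 without HRas-KO replicate 3, 3 without replicate 2, and 1 with the muscle means or the small RNA mean as covariates. Rabac1 (PRA1), a Golgi protein that binds prenylated Rab and Ras proteins, read 8.64, 8.49 and 8.60 in HRas-KO and 9.94, 9.62, 9.998, 9.65 and 9.64 in DKO. The difference of 1.19 ± 0.10 was 2.29-fold, had the smallest adjusted p of the named genes (2.18e-07) and was called under each of 25 other settings. Control and NRas-KO lungs were at the HRas-KO level, 8.61 ± 0.10 and 8.64 ± 0.08 (SD, n = 3 each). Pde6d, which carries prenylated Ras through the cytosol, rose by 0.75 ± 0.17 (adjusted p = 0.00916) and Pggt1b, a subunit of geranylgeranyl transferase, by 0.50 ± 0.11 (adjusted p = 0.00694). Rabggtb, a Rab geranylgeranyl transferase subunit whose introns hold small nucleolar RNAs, read 5.66, 5.67 and 5.52 in HRas-KO and 7.09, 6.83, 9.18, 6.26 and 6.15 in DKO (1.48 ± 0.42, adjusted p = 0.0369), with replicate 3 far above the others, and its call was lost under 12 of 25 other settings.

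Small noncoding RNAs held many of the largest rises. Small nucleolar RNAs guide chemical changes of ribosomal and spliceosomal RNA and are mostly cut from introns of host genes. Of 78 measured under Snord, Snora or Scarna symbols, a grouping made after their values were seen, 35 rose and none fell, 68 had a positive difference, and the median was 0.75. They make up 27 of the 60 genes that rose by 2-fold or more. Their mean, relative to all untreated arrays, was -0.57, -0.17 and -0.44 on the HRas-KO arrays and 0.39, 0.18, 0.83, 0.24 and 0.21 on the DKO arrays. The groups did not overlap, with DKO replicate 3 the highest, but Control replicate 1 (0.04) and NRas-KO replicates 1 and 3 (0.08 and 0.10) came near the lower DKO lungs. The number that rose was 24 to 37 with 1 of the 8 arrays left out, 30 among females alone, 12 among males alone, and 19 with muscle means as covariates. With the small RNA mean described below as a covariate 2 rose and 1 fell, with a median of 0.14. In the NAC arm 0 of the 78 were called and their median difference was 0.18. Of 483 microRNA symbols, grouped likewise, 1 rose and 15 fell, where 3.3% and 2.32% of all genes did. Their differences were positive for 234 and negative for 249, with a median of -0.01.

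Of 9 genes in a list of other small noncoding RNAs 4 rose, with a median of 0.76. Rnu3a, a U3 small nucleolar RNA of ribosomal RNA processing, read 5.60, 6.49 and 6.38 in HRas-KO and 9.07, 8.44, 9.68, 7.48 and 8.34 in DKO (2.44 ± 0.31, adjusted p = 3.67e-05). The Y RNA gene Rny3 read 8.85, 9.55 and 9.02 in HRas-KO and 10.95, 10.59, 10.78, 10.84 and 10.56 in DKO (1.60 ± 0.26, adjusted p = 0.000705). Rny1 rose by 0.89 ± 0.17 (adjusted p = 0.00258) and Terc, the telomerase RNA, by 0.82 ± 0.23 (adjusted p = 0.0366). Several of these RNAs are short or have near-identical copies, which probes may not separate. With the mean of the 9 as a covariate 180 genes were called in all, and its part in the other differences was not tested further.

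Of the other named genes that rose, Rnf125, a ubiquitin ligase of antiviral signalling, differed by 1.39 ± 0.30 (adjusted p = 0.00646), Pi15, a secreted protease inhibitor, by 1.32 ± 0.31 (adjusted p = 0.0115) and Kcne4, a potassium channel subunit, by 1.32 ± 0.27 (adjusted p = 0.0037). Pappa, the protease that frees IGF from its binding proteins, rose by 1.22 ± 0.28 (adjusted p = 0.0104) and was the only gene called of 18 in the IGF axis. Mkx, a tendon transcription factor, rose by 1.21 ± 0.36 (adjusted p = 0.0453), and Lpin1, a phosphatidate phosphatase, by 1.20 ± 0.22 (adjusted p = 0.00163). The call of Mkx was lost under 18 of 25 other settings, with values down to 0.15. Of those that fell, Zfp781, a zinc finger protein, differed by -1.40 ± 0.25 (adjusted p = 0.00144), Prnd, the prion-like doppel, by -1.37 ± 0.37 (adjusted p = 0.0257) and Ppan, a ribosome biogenesis factor, by -1.08 ± 0.21 (adjusted p = 0.00248). Of 20 genes of the unfolded protein response 3 rose, the chaperone gene Hspa5 (0.46 ± 0.09, adjusted p = 0.00352), the sensor Atf6 (0.38 ± 0.08, adjusted p = 0.00468) and Herpud1 (0.64 ± 0.15, adjusted p = 0.0131). Of 10 erythroid genes the embryonic globin Hbb-y rose by 1.16 ± 0.28 (adjusted p = 0.0127) and the blood group gene Ermap by 0.83 ± 0.23 (adjusted p = 0.0306). Hbb-y was highest on DKO replicates 4 and 5, at 7.51 and 6.87. Of 20 skeletal muscle and 11 liver genes none was called. Their medians were 0.24 and 0.85.

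**Figure D4:**
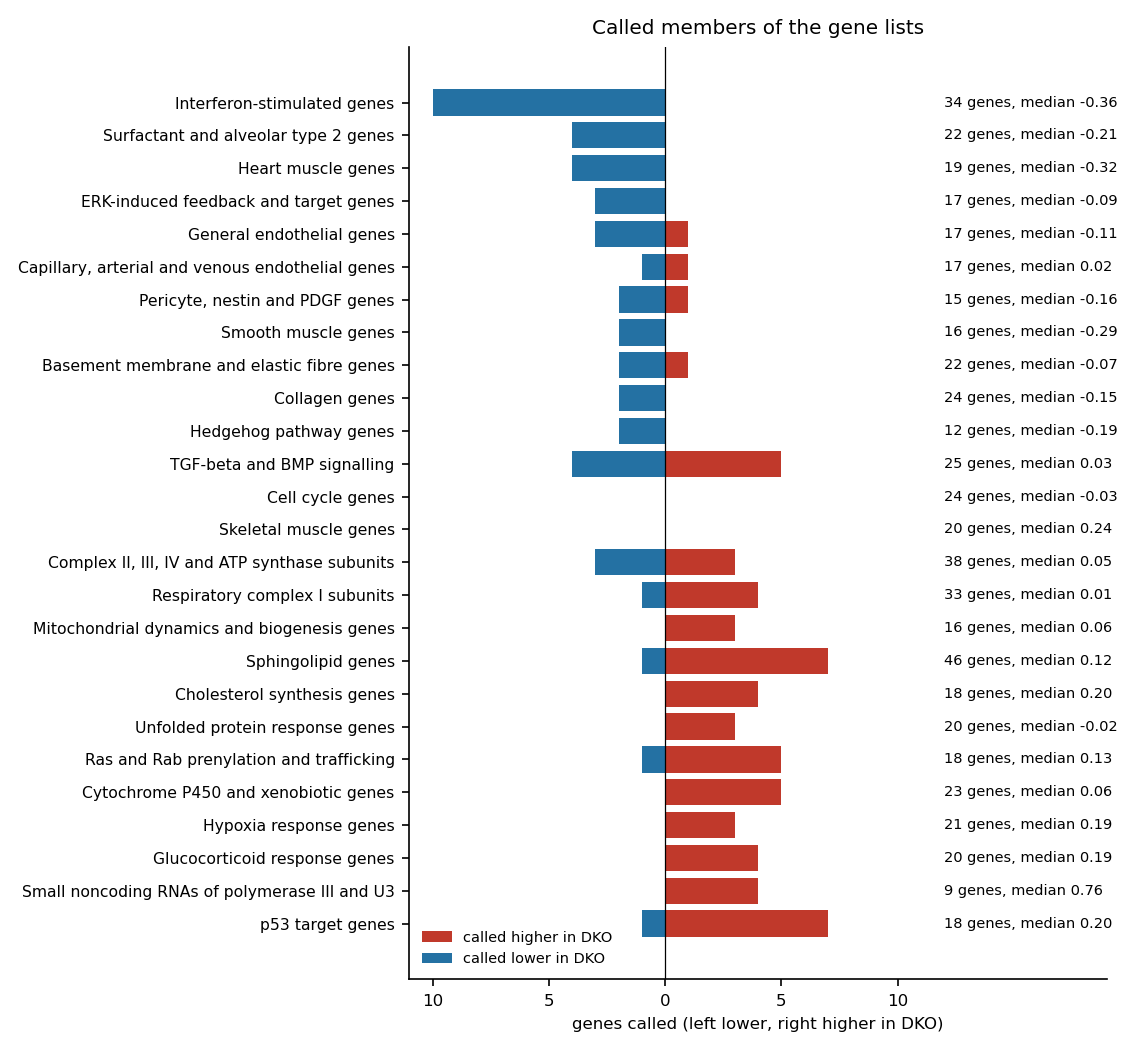
Number of genes called in each list, lower in DKO to the left (blue) and higher to the right (red), with the number measured and the median difference at the right. Interferon-stimulated genes have 10 called lower and p53 targets 7 called higher; among the lists drawn the medians of the capillary, TGF-beta and unfolded protein lists, all within 0.03 of 0, change sign under another scaling of the arrays.

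The same contrast was made in the NAC arm, whose arrays are different animals. DKO+NAC and HRas-KO+NAC lungs differed in 0 of 22180 genes (0%) by the limma test, with 1482 genes (6.68%) at an unadjusted p under 0.05. By sex genes all 3 HRas-KO+NAC lungs were male and all 4 DKO+NAC lungs female, so sex and genotype cannot be told apart there, and DKO+NAC replicate 4 had Nras at 8.08, high for its label. A treatment note in the labels names fewer samples than carry the NAC label, and the titles of the HRas-KO+NAC arrays do not mention NAC, which their source names and treatment entries do. The 733 genes that rose without NAC had a median difference of -0.02 with NAC, and 330 of them were positive. The 515 that fell had a median of -0.01, and 277 of them were negative. Nras differed by -0.54 ± 0.11 with NAC (adjusted p = 0.38). Rny1 differed by 0.88 ± 0.18 with NAC and Tnnt2, the cardiac troponin, by -1.003 ± 0.23, close to their untreated differences of 0.89 and -0.92.

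The difference between the arms was itself called for 211 genes (0.951%), 144 higher (0.649%) and 67 lower (0.302%). Rabac1 differed by 1.19 without and 0.21 with NAC (difference 0.98, adjusted p = 0.0081) and Etv5 by -1.63 and -0.26 (difference -1.38, adjusted p = 0.0081). Etv5 stood at 7.79 in HRas-KO+NAC and 7.53 in DKO+NAC, beside an untreated DKO level of 7.38. Trp53inp1 stood at 10.86 and 10.76 in the same NAC groups, and Nes at 7.79 and 7.95. No code start occurred in both arms, so code start and NAC cannot be told apart in levels compared across arms. With the Xist level as a covariate the number of genes that differed between arms was 15, and with any 1 array left out it was 29 to 324.

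**Figure D5:**
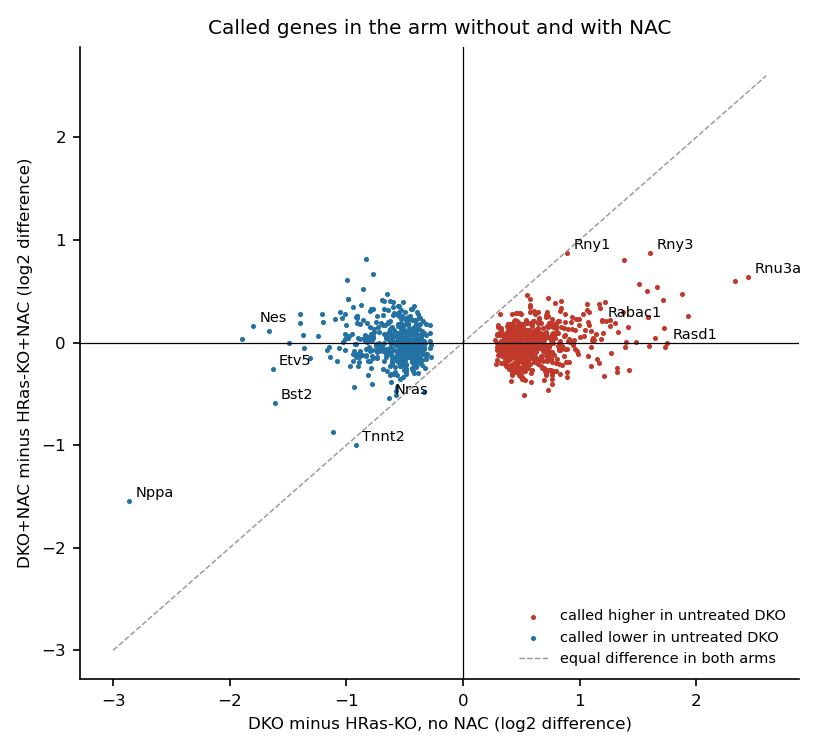
Difference between DKO and HRas-KO in the NAC arm (log2, vertical) against the difference without NAC (log2, horizontal) for the 1248 called genes, red where higher and blue where lower without NAC; the dashed line marks equal differences. Both clouds centre near 0 on the vertical axis (medians -0.02 and -0.01), and Nras, Rny1 and Tnnt2 lie near the dashed line.

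Loss of NRas in the presence of HRas was a further independent contrast. NRas-KO and Control lungs differed in 0 genes (0%), with 231 (1.04%) at an unadjusted p under 0.05. The 733 and 515 genes had medians of -0.0027 and -0.0029 in it, and Nras differed by -0.55. The effect of NRas loss without HRas differed from that with HRas for 50 genes (0.225%), 31 higher (0.14%) and 19 lower (0.0857%). Rabac1 (1.16, adjusted p = 0.00041), Etv5 (-1.78, adjusted p = 0.00041), Ptch1 (-0.96, adjusted p = 0.020), Muc1 (-0.83, adjusted p = 0.025), Nes (-1.91, adjusted p = 0.027), Phlda3 (-0.81, adjusted p = 0.029), Perp (1.27, adjusted p = 0.043), Cdkn1a (0.82, adjusted p = 0.044), Sesn1 (1.41, adjusted p = 0.045) and Gimap4 (-1.30, adjusted p = 0.048) were among them. With any 1 array left out the count was 10 to 98. Against the same DKO arrays Control lungs gave 850 called genes (3.83%), and HRas-KO against Control gave 0 (0%), with 190 (0.857%) at an unadjusted p under 0.05. These comparisons share arrays with the main one and are given side by side only. Control, HRas-KO and NRas-KO animals had some code starts in common, whereas no other group shared a start with DKO. For the 850 calls against Control and for the 50 genes, code start and genotype therefore cannot be told apart.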

How the data were processed

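Total RNA from whole lungs was measured on Affymetrix whole-transcript arrays, 1 array per animal. The authors deposited log2 values per probe set, made with RMA in affy per the submitters' processing notes; no version is given in the sources used here. In all the table holds 41345 probe sets and 28 arrays. Of the probe sets 23521 have 1 gene symbol in the platform annotation, 1814 several and 16010 are unlisted; each of 22180 genes was read from the brightest of its probe sets. One row of this kind, for the gene targeted in HRas-KO, is not reported here.

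Means of the 8 groups were fitted to all 28 arrays with limma 3.58.1 in R 4.3.3 (lmFit, eBayes), and p-values were adjusted by Benjamini-Hochberg over all 22180 genes at 0.05. The fit had 20 residual and 5.95 prior degrees of freedom, and the number of arrays limits the precision. Labels describe each array as 1 animal; litters are not stated. Replicate numbers did not pair arrays, since the deviations of same-numbered DKO and HRas-KO arrays correlated by 0.1854, -0.0626 and -0.1008. Covariates added to the fit were list means or the Xist level.

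The groups compared and the 64 gene lists were chosen with earlier results of these data known. Named genes were the 15 with the largest rise and the 15 with the largest fall among called genes, the 4 with the smallest p in each list, and fixed markers, leaving out predicted genes, clone names, Mir, Snor and Scarna symbols, Xist and Y-linked genes. Genes stated to be named after their values were seen lie outside that rule. Promoter stretches come from RefSeq, GRCm38.p6.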

Additional observations from a re-analysis of the deposited data

Results flagged for a closer look

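Single DKO lungs stood far from the other 4 (by Dixon's criterion) for 15 of 206 group values checked, while chance gives about 1 in 20. DKO replicate 3 was low for Acta2 (9.68), Cdkn1a (10.93), Ccnd2 (8.36) and the club cell list mean (-0.0132), and high for Ndufc2 (9.22). DKO replicate 5 was low for Oasl2 (5.21) and Tie1 (8.40). It was high for the list means of basal keratins (0.68), liver (1.57) and oesophagus, thymus and thyroid (0.67). DKO replicate 2 was low for Fabp4 (7.62) and Sdhc (6.94) and high for Atf6 (9.33), replicate 4 was high for Etv5 (7.81), and replicate 1 was low for Herpud1 (10.50).

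The DKO minus HRas-KO difference itself differed between the untreated and the NAC arm for 25 named genes by the limma interaction test, in arms where sex and genotype are tied with NAC. It was higher without NAC for Rnu3a (1.81), Tnfrsf10b (1.69), Kcne4 (1.56), Sesn1 (1.37), Trp53inp1 (1.37), Perp (1.31), Slc2a1 (1.07), Rabac1 (0.98), Thbs2 (0.98), Gsta4 (0.96), Mff (0.89), Rictor (0.86), Uqcrfs1 (0.75), Hspa5 (0.74) and Gabpa (0.71). It was lower without NAC for Nes (-1.96), Ly96 (-1.77), Pdgfb (-1.68), Zfp781 (-1.58), Etv5 (-1.38), Gimap4 (-1.33), Oas2 (-1.10), Plvap (-1.01), Phlda3 (-0.95) and Muc1 (-0.72).

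The difference that NRas loss makes also differed between lungs without and with HRas for 11 named genes by the same kind of test. It was higher without HRas for Sesn1 (1.41), Perp (1.27), Rabac1 (1.16) and Cdkn1a (0.82), and lower for Nes (-1.91), Etv5 (-1.78), Gimap4 (-1.30), Ptch1 (-0.96), Muc1 (-0.83), Phlda3 (-0.81) and Nono (-0.77). Code start and genotype are tied in this test, since no other group shared a start with DKO.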

How the results depend on the processing

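The 1248 DKO against HRas-KO calls became 2162 with array weights, 459 with only those 8 arrays, 115 with muscle means and 180 with the small RNA mean as covariates, 4 at a 1.5-fold minimum, and 549 to 1246 with 1 array left out (632, 549 and 761 without HRas-KO replicates 1, 2 and 3). Of 3 settings chosen after seeing the data, leaving out the 3 DKO arrays highest in skeletal muscle genes gave 651, females alone 736 and males alone 111. The 0 calls of the NAC arm became 1 with median centring, 4 with array weights and 4 with only its arrays, and stayed 0 with 1 array left out. The 50 genes whose NRas effect differed with HRas became 85 without the dimmest 40% of genes, 321 with array weights, 12 with only the 4 untreated groups, 12 with muscle means, 0 at a 1.5-fold minimum, 104 among females and 2 among males. That count was 98, 23 and 10 without Control replicates 1, 2 and 3, 25, 25 and 26 without NRas-KO replicates 1, 2 and 3, 24 without HRas-KO replicate 2, and 94 and 33 without DKO replicates 4 and 5. The 211 genes that differed between arms became 332 without the dimmest genes, 354 with median centring, 791 with array weights, 123 with only the 4 groups compared, 136 with the code start as a random block, 38 with muscle means, 15 with Xist and 0 at a 1.5-fold minimum. That count was 53 and 44 without HRas-KO replicates 1 and 2, 100 without DKO replicate 5, 29, 83 and 71 without HRas-KO+NAC replicates 1, 2 and 3, and 80, 72, 138 and 324 without DKO+NAC replicates 1, 2, 3 and 4. Among 127 called genes direction turned for Malat1 with the mean of its probe sets (0.0432), Nppa with muscle means (0.30) and Terc with the small RNA mean (-0.0837), and in no other of their 3173 settings. Calls of those 127 genes were lost, with direction kept, in 967 of the 3173. Fabp4 lost its call under 16 settings, Sfta2, Myl4 and Sult1d1 under 15 each, and Ccnd2 and Mfap5 under 14 each. For 15 named genes that were not called the sign turned in 37 of 374 settings. The causes were not tested.

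With the replicate number as a block, which the labels do not tie to litters, the counts were 954, 0, 50 and 159 in the same order. With the code start as a random block they were 1023, 0, 69 and 136.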

Other observations

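Nono, an RNA-binding protein of nuclear paraspeckles, read 9.42, 9.62 and 9.60 in HRas-KO and 9.01, 9.10, 8.77, 8.98 and 8.76 in DKO. No DKO lung reached an HRas-KO lung, the difference was -0.62 ± 0.10 (limma adjusted p = 0.000646), and it was called under 23 of 25 other settings. In the NAC arm it was -0.32 ± 0.11 (adjusted p = 0.62). Of 10 long nuclear RNA and paraspeckle genes the other called one was Malat1, at -0.28 ± 0.08 (adjusted p = 0.0448).

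Single genes of several other lists were called, at most 2 per list, where 5.63% of all genes were called. Aqp1, the water channel of lung capillaries, differed by 0.52 ± 0.15 (adjusted p = 0.0324), with the groups overlapping, and was the only gene called of 13 fluid clearance channels and pumps. Slc38a4, an imprinted amino acid carrier, rose by 0.82 ± 0.21 (adjusted p = 0.0203), alone among 15 imprinted growth genes. Of 14 fatty acid synthesis genes Acss2, which makes acetyl-CoA from acetate, rose by 0.55 ± 0.12 and the elongase gene Elovl5 by 0.40 ± 0.11 (adjusted p = 0.00689 and 0.0345). Ackr3, a scavenging chemokine receptor, rose by 0.72 ± 0.18 (adjusted p = 0.0178), alone among 26 chemokine genes. Elane, neutrophil elastase, rose by 0.46 ± 0.11 (adjusted p = 0.0171), alone among 16 neutrophil and mast cell genes, and Fabp4 by 1.06 ± 0.30 (adjusted p = 0.0378) among 10 of brown fat. Ep400, a chromatin remodeller, rose by 0.80 ± 0.19 (adjusted p = 0.0127), alone among 19 chromatin genes, and Rpl35 by 0.48 ± 0.13 (adjusted p = 0.023), alone among 32 ribosomal protein genes. Ier2 was the only one called of 18 immediate early genes (-0.44 ± 0.13, adjusted p = 0.0459), and its call was lost under 16 of 25 other settings. No gene was called among 7 of lymphatic endothelium, 8 of mesothelium, 9 of oesophagus, thymus and thyroid, or 8 of nerve and Schwann cells.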
